A study of Mus musculus with 11 samples.

Results

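Clones 24 and 26 are a pair of clonal mouse embryonic stem cell lines with high RNA of p53 target genes, 2 of the 11 clones sequenced. They were chosen by the level of 2 p53 targets: the pair holds every clone with more than 350 CPM (counts scaled to a common library total) of Ccng1 and more than 400 CPM of Trp53inp1. Everything below that sets the pair against the other 9 clones uses the contrast that selected it, so those values are descriptions with no test. Ccng1 stood at 403 CPM in clone 24 and 415 CPM in clone 26, and the nearest clone outside the pair, clone 16, had 282 CPM. Trp53inp1 stood at 412 CPM in clone 24 and 436 CPM in clone 26, and the nearest outside, clone 19, had 300.0 CPM. Neither threshold passed through a crowded range of values.

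All 11 clones descend from EBRTcH3, a mouse embryonic stem cell line in which the endogenous ROSA26 promoter drives a tetracycline-controlled transactivator (tTA). The cells had received a barcoded piggyBac reporter library with the mouse PGK promoter (mPGK) together with a plasmid for the transposase mPB, were sorted for high eGFP and were picked as single colonies, so each line is 1 clone with many reporter integrations of its own. They grew in medium conditioned by BRL cells with leukemia inhibitory factor, the MEK inhibitor PD0325901 and the GSK-3 inhibitor CHIR99021. The labels place all clones in 1 group, name no untreated line and give 1 library per clone, so variation within a clone was not measured. The labels name no batch, and the clone numbers, 16 to 26, are the only labels that tell the libraries apart.

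The transcription factor p53, encoded by Trp53, is kept low by the ubiquitin ligase Mdm2 and accumulates after DNA damage and other stresses. It binds paired copies of a short palindromic element and switches on genes for cell cycle arrest, apoptosis, DNA repair and metabolism, and Mdm2 is one of those genes, which closes a feedback loop. Embryonic stem cells are known to hold abundant p53 RNA and protein in normal culture, and to pass through a short G1 phase.

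Promoter sequences show what the element looks like in genes described below. The search covered the 250 bases before and 50 after each RefSeq gene start (GRCm38.p6) for the p53 response element, which is 2 consensus decamers with at most 1 base between them and at most 1 base off the consensus in all. The element is palindromic, so 1 search reads both strands. It was present in 16 of 9388 described genes with a promoter in the table (0.170%), in 6 of 65 genes on p53 target lists (9.23%), in 3 of 191 genes with both clones of the pair above the other 9 (1.57%) and in 0 of 331 with both below. The 3 are Ccng1, Bax and Polk. All 3 are on the p53 target lists and so are among the 6 counted there, and Ccng1 is a gene of the selection rule. The 191 and 331 genes come from the contrast that chose the pair, so their shares are a description and no separate support. Cdkn1a is shown as a target with the element for which the pair did not stand above the other clones. Capitals mark the element in the 250 bases before the start, written 5′ to 3′ on the strand of the gene, and a match is a description of letters, not evidence of binding.
Ccng1: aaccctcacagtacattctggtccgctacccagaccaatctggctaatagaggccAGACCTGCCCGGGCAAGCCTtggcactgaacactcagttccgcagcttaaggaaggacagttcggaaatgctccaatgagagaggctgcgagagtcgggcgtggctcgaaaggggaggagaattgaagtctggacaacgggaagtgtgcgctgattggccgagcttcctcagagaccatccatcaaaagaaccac
Bax: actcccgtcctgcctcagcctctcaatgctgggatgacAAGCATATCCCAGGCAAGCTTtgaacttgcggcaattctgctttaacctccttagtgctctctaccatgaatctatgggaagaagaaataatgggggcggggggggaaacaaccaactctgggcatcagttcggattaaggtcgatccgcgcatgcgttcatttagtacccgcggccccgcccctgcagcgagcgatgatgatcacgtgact
Polk: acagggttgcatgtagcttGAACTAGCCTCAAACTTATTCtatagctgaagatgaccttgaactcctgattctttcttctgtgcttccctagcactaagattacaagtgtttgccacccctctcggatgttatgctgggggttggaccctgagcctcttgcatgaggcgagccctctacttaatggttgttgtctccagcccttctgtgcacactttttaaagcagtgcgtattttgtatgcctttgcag
Cdkn1a: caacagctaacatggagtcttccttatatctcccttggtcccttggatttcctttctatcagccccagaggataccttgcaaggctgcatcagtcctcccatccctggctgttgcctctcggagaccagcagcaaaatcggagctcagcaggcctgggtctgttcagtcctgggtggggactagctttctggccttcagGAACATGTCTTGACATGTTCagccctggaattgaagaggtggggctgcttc
The Ccng1 window is chr11:40755287-40755536 on the minus strand, with the element from 195 to 176 bases before the start. The Bax window is chr7:45466899-45467148 on the minus strand, with the element from 212 to 192 bases before the start. The Polk window is chr13:96519188-96519437 on the minus strand, with the element from 231 to 211 bases before the start. The Cdkn1a window is chr17:29090729-29090978 on the plus strand, with the element from 51 to 32 bases before the start. A single decamer matching the consensus was common by comparison: it was present in 8.06% of all promoters searched, in 30.8% of those of the p53 target lists, in 8.90% where both clones lay above the others and in 9.06% where both lay below.

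The table held counts for 22369 genes, of which 11918 autosomal ones averaging 1 CPM or more are described. Library totals ran from 10846005 to 16868500 counts, with 15873887 in clone 24 and 14703547 in clone 26, both inside the range of the other 9. A level of 3 counts, the limit below which a gene could have gone unseen, was 0.178 to 0.277 CPM. The pair was not among the most alike libraries of the series. The correlation of log2(CPM + 1) between clones 24 and 26 across genes was 0.973, rank 31 of 55 library pairs (range 0.943 to 0.995), a description across genes that share their libraries. Whether either clone was the nearest to the other was not examined. Chromosome medians of the log2 difference from the median clone lay between -0.07 and 0.02 in the pair, against -0.13 to 0.52 in the other clones. There chromosome 8 in clone 22 and chromosome 3 in clone 16 each gave 0.52, and chromosome 19 in clone 17 gave 0.495. Chromosome 15 gave 0.29, 0.21, 0.20 and 0.36 in clones 16, 17, 18 and 19. Against the mean of the other 9, the median over chromosome 15 genes was -0.15 in clone 24 and -0.20 in clone 26. Of 9 stem cell markers, 6 were inside the range of the other clones in both: Pou5f1 was 840 CPM in clone 24 and 785 CPM in clone 26 (754 to 975 in the others), and Nanog 678 and 804 CPM (603 to 965). Klf4 and Esrrb were above it in clone 24, at 599 CPM (highest other 502) and 1557 CPM (highest other 1538), and Tbx3 was below it in clone 26, at 562 CPM (lowest other 611).

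Of the 11918 genes, 2743 (23%) were higher in both clones than the mean of the other 9 and 3892 (32.7%) lower in both, which makes 6635 genes with a shared direction, and the clones went opposite ways for 5283. In 238 genes both clones lay above all of the other 9, a background share of 2.0%, and in 426 both lay below, 3.57%. Most of these differences were small. Both clones were at least 1.5-fold from the mean in 33 of the higher and 94 of the lower genes, and at least 2-fold in 4 and 15. The split depended on scaling: it was 238 higher and 426 lower over library totals (35.8% higher), 351 and 355 with TMM-scaled totals (49.7%), and 385 and 343 with DESeq2 size factors (52.9%), while 227 higher and 336 lower genes were outside under each of the 3. A single clone of the pair was outside far more often. Clone 24 was above the other 9 in 12.3% of genes and below in 14.1%, and clone 26 in 8.45% and 15.1%. Those shares are the background for each gene below with only 1 clone outside.

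On 5 lists of known p53 targets, 76 of 79 genes were expressed at 1 CPM or more on average. Both clones were above the mean of the others for 41 of these, below it for 6, and on opposite sides for 29. For 17 genes both clones lay above all other 9 clones, and for 0 did both lie below. Over all described genes, 23% were higher in both clones and 32.7% lower, with 2.0% above the range and 3.57% below it. The same shares are the background for the counts of each list below. The median log2 difference of the pair was 0.19, beside -0.03 over all described genes, and without Ccng1 and Trp53inp1 it was 0.18 with 15 of 74 above. The count above was 18 under either of the other scalings. The lists were drawn up with results of these clones known and hold the genes of the selection rule, so the counts describe the pair and support nothing further.

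**Figure D1:**
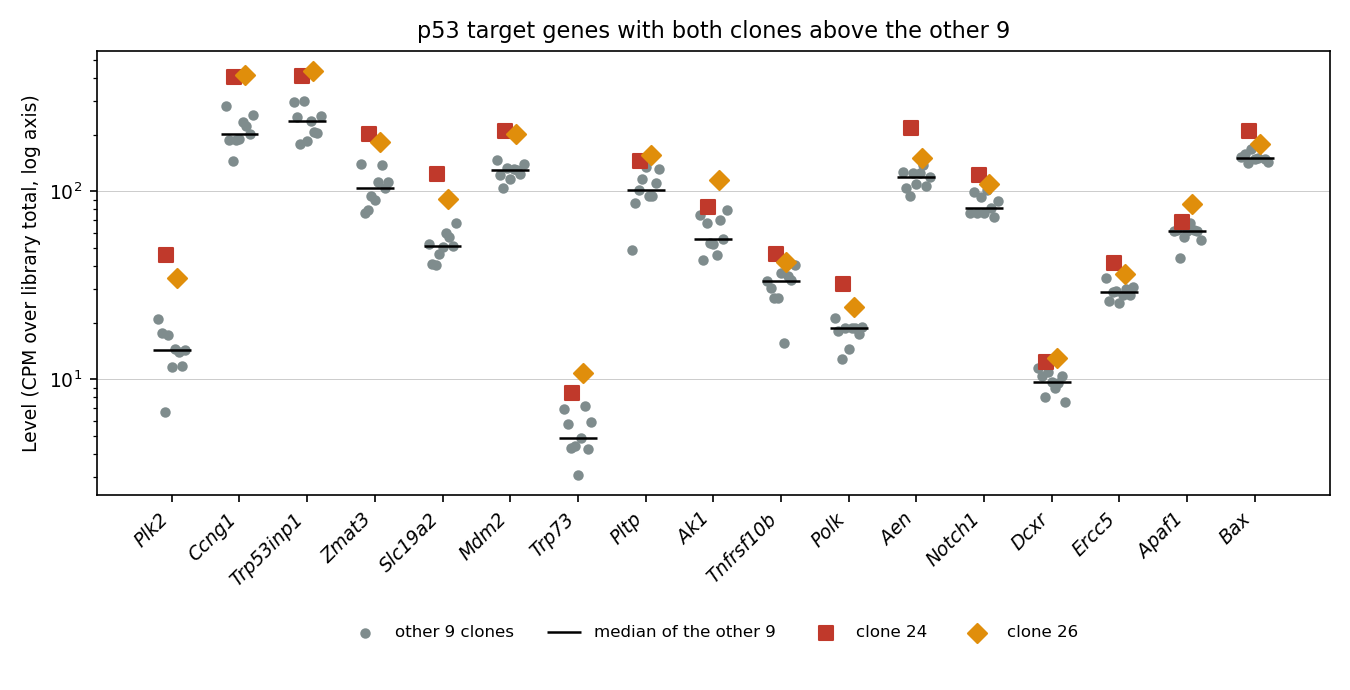
Level of the 17 p53 target genes with both clones of the pair above the other 9, in CPM over the library total on a log axis. Grey points are the other 9 clones, the black line is their median, the red square is clone 24 and the orange diamond clone 26; the pair stands clear for Plk2 and Slc19a2 and only just clear for Bax, Apaf1 and Dcxr.

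Genes upstream of p53 rarely had both clones outside the range of the other clones. Trp53 itself was 400 CPM in clone 24 and 400 CPM in clone 26, and 328, 398 and 477 CPM as lowest, median and highest of the other 9. The pair thus sat at the median for Trp53, with a log2 difference of 0.02 in either clone. Of 25 genes for p53 and its regulators, 7 were higher in both clones, 5 lower in both, and the median difference was 0.03. Both clones were above all others for 1 of the 25, the histone deacetylase gene Hdac1, by a small step (53.5 and 53.2 CPM, others 44.8 to 52.6). Usp7, the deubiquitinase that acts on p53 and Mdm2, was 862 CPM in clone 24 and 852 CPM in clone 26, and 652, 697 and 867 CPM in the others. Only clone 25 was as high. The damage kinase gene Atm was 123 and 106 CPM (others 111 to 140), and Chek1, a kinase of the replication checkpoint, was 109 and 78.5 CPM (others 85.8 to 116). For both kinase genes clone 26 was below every clone outside the pair and clone 24 was within the range. Others on the list also had 1 clone outside it. Clone 24 was above it for Atr (163 CPM, highest other 162), Crebbp, Sirt1 and Hipk2, and clone 26 was below it for Ep300 (271 CPM, lowest other 291). Cdkn2a, whose Arf product inhibits Mdm2, was 6.99 and 11.7 CPM inside a range of 5.99 to 15.7. Trp63, a p53 relative, had 0 CPM in clone 24 and 0.136 CPM in clone 26, both under the limit of 3 counts, while clone 19 had 41.2 CPM.

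Of the 5 target lists, the one that feeds back on p53 had the highest share in 1 direction, with 7 of 9 higher in both clones, 0 lower in both, and a median of 0.19. Mdm2 was 209.7 CPM in clone 24 and 201 CPM in clone 26, and 104, 129 and 145 CPM in the others. The gap between the pair and the highest other clone was wider than the whole range of the 9 (mean 127 ± 12.4 CPM, SD, n = 9). Zmat3, an RNA-binding zinc finger protein, was 201 and 182 CPM in the pair and 76.8, 104 and 139 CPM in the others. Trp73, the third member of the p53 family, was 8.44 and 10.7 CPM against 3.10, 4.86 and 7.2 CPM. For each of these 3 genes the pair and the other clones did not overlap. Mdm4, the Mdm2 partner that restrains p53, was 190.1 and 189 CPM within a range of 119 to 248 CPM. Ppm1d, a phosphatase that switches the damage response off, was 32.5 and 26.8 CPM, so clone 24 was above the other range of 23.1 to 30 CPM and clone 26 inside it.

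Among 14 targets for cell cycle arrest and growth, 8 were higher in both clones, 0 lower in both, and 2 lay above all others, Ccng1 and Plk2. Plk2, a polo-like kinase, was 45.5 CPM in clone 24 and 34.6 CPM in clone 26, and 6.68, 14.3 and 20.8 CPM in the others. It had the largest smaller-of-the-pair difference of all genes above the range with a mean of at least 5 CPM, at 1.66 and 1.27 on the log2(CPM + 1) scale. Cyclin G1, the product of Ccng1, is a partner of protein phosphatase PP2A and of Mdm2. It was 145, 201 and 282 CPM in the other clones, and the ratio of the mean of the pair to theirs was 1.94.

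Cdkn1a, the p21 inhibitor of cyclin-dependent kinases and the textbook arrest target, did not follow. It was 66.2 CPM in clone 24 and 124 CPM in clone 26, and 40.6, 65.1 and 123 CPM in the others. Clone 24 was at the median of the others, and clone 26 matched clone 19. Btg2, an antiproliferative gene, was 45.2 and 28.1 CPM (others 18.2 to 32.8), and Phlda3, a repressor of Akt, 53.9 and 40.6 CPM (others 17.1 to 45.3). In both genes clone 24 was above all others, as it was in 12.3% of all described genes, and clone 26 was not. Sesn1, a sestrin that restrains mTORC1, was the reverse, 17.9 CPM in clone 24 and 32.7 CPM in clone 26 around a range of 19 to 30.7 CPM.

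Of 17 targets for apoptosis and survival, 9 were higher in both clones, 2 lower in both, and 5 above all others. Besides Trp53inp1, a stress protein with a part in autophagy, these were Aen, Tnfrsf10b, Apaf1 and Bax. Aen, a nuclease of apoptotic cells, was 218 CPM in clone 24 and 151 CPM in clone 26, and 94.0, 118 and 138 CPM in the others. Bax, which opens the mitochondrial outer membrane, was 208 and 177 CPM against 142, 151 and 176 CPM, so clone 26 cleared the highest other clone by little. Tnfrsf10b, a death receptor, was 46.5 and 41.8 CPM (others 15.6 to 40.4), and Apaf1, the core of the apoptosome, 68.5 and 85.4 CPM (others 44.1 to 67.4). Bbc3, which encodes the BH3-only protein Puma, was 29.9 CPM in clone 24 and 18.6 CPM in clone 26, and 8.28, 12.1 and 19.3 CPM in the others. Clone 16 passed clone 26 there. Pmaip1, another BH3-only gene, was 15.7 and 8.64 CPM inside a range of 7.01 to 26.8 CPM. Steap3, a metalloreductase gene on the same list, had the lowest ratio to the other clones of all targets described, 0.28, at 3.84 and 6.39 CPM against 4.78, 14.7 and 38.5 CPM.

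DNA repair targets were mixed. Of 11, both clones were higher for 3, lower for 1 and above all others for 2, Polk and Ercc5, with a median of 0.10. The share higher in both was near the 23% of all described genes. Polk, a translesion polymerase, was 32.1 CPM in clone 24 and 24.3 CPM in clone 26, and 12.9, 18.6 and 21.2 CPM in the others. Ercc5, a nucleotide excision repair nuclease, was 41.6 and 36.1 CPM against 25.5, 29.1 and 34.7 CPM. The damage sensors of the same repair pathway were not high: Ddb2 was 15.2 and 14.1 CPM (others 14.2 to 22) and Xpc 40.9 and 39.7 CPM (others 35.3 to 44.9). Among 25 targets for metabolism, traffic and signalling, 14 were higher in both clones, 3 lower in both and 5 above all others. Slc19a2, a thiamine transporter, was 124 and 90.8 CPM against 40.3, 51.3 and 67.5 CPM, with no overlap. Ak1, an adenylate kinase, was 82.5 and 114 CPM (others 43.2 to 79.6), and Pltp, a phospholipid transfer protein, 145 and 155 CPM (others 48.5 to 134). The receptor gene Notch1 was 122 and 109 CPM (others 72.4 to 102), and Dcxr, a carbonyl reductase, 12.3 and 13 CPM (others 7.54 to 11.5).

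**Figure D2:**
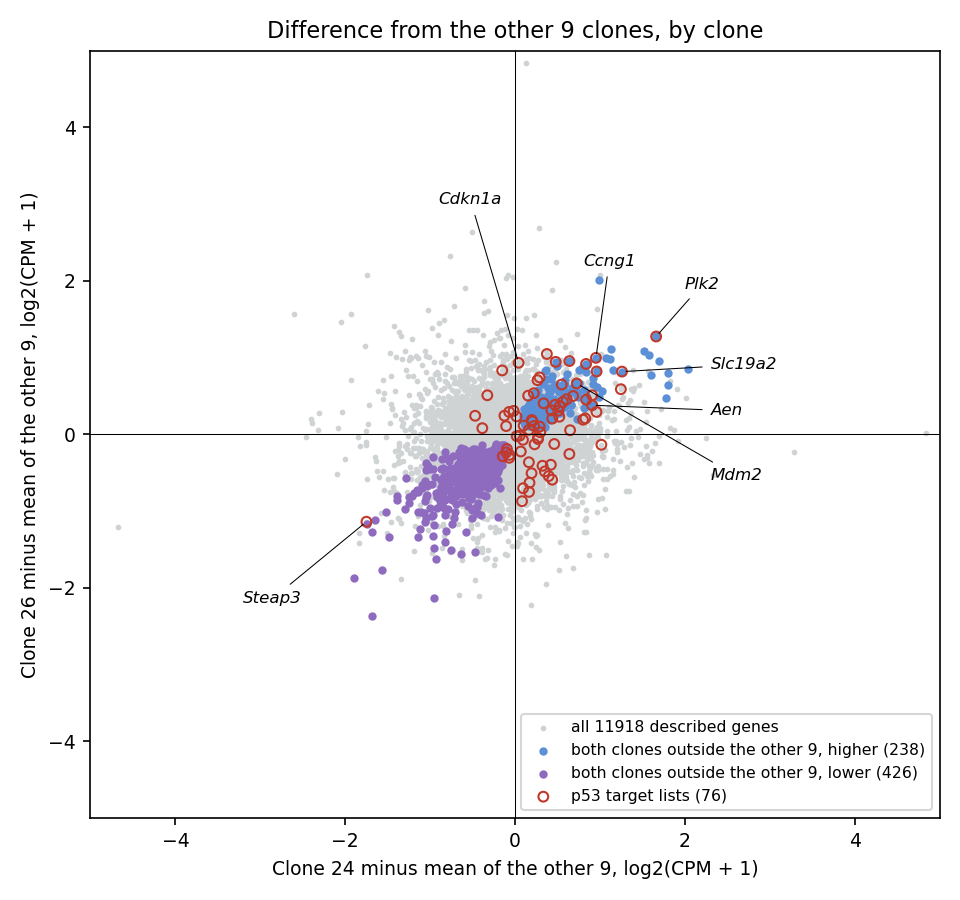
Difference of clone 24 (horizontal) and clone 26 (vertical) from the mean of the other 9 clones, in log2(CPM + 1), for 11918 genes. Blue and purple points are the 238 and 426 genes with both clones outside the range of the other 9, and red circles are the 76 p53 targets, 41 of them in the upper right quadrant and 6 in the lower left.

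Outside the target lists, the leading genes above the range had varied roles. Zic2, a zinc finger transcription factor of neural and early embryonic cells, was 91.7 CPM in clone 24 and 90.5 CPM in clone 26, and 15, 44.8 and 79.5 CPM in the others. The cytoskeletal genes Clip3 (18 and 13.1 CPM, others 2.68 to 9.40) and Dpysl3 (24.3 and 16.3 CPM, others 3.93 to 13.2) were both clear of the range. Pga5, a pepsinogen gene, was 9.26 and 19.8 CPM against 1.01 to 8.31 CPM, and was the gene of these whose level differed most within the pair. Ddit4l, an mTORC1 inhibitor related to Ddit4, was 14.0 and 13.7 CPM (others 5.42 to 12), whereas Ddit4 was 160.3 and 84.5 CPM inside a range of 57.8 to 327 CPM. Prrg4, Cds1, Plxdc1, Arap2 and Ece1 completed the 15 leading genes, with ratios of the pair to the mean of the others from 1.77 for Cds1 to 2.51 for Plxdc1. In Ece1, an endothelin-converting protease, clone 26 at 52.8 CPM barely passed the highest other clone at 52.1 CPM, and clone 24 had 94.6 CPM.

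The genes below the range lay further from the mean than those above it, with medians of -0.46 and 0.30 on the log2(CPM + 1) scale. Ntrk2, the receptor for the neurotrophin BDNF, was 2.2 CPM in clone 24 and 2.24 CPM in clone 26, and 6.27, 8.79 and 31.0 CPM in the others. Tgm2, a transglutaminase, was 3.53 and 1.84 CPM against 6.42, 9.79 and 54.7 CPM. Ptges, a prostaglandin E synthase, was 10.5 and 9.05 CPM against 12.1, 37.2 and 80.2 CPM. In these 3 genes the other clones themselves spread several-fold, and the pair lay at the low end of a wide range. Meis2, a homeobox gene, was 19.5 and 29.7 CPM (others 41.3 to 149.9), the kinase gene Lyn 8.9 and 8.23 CPM (others 16 to 28.1), and the histone deacetylase gene Hdac7 16 and 15 CPM (others 20.2 to 58.8). The matricellular gene Ccn1 was 4.41 and 3.74 CPM (others 5.75 to 30.3). Germ cell genes were among the 15 leading ones: Dazl, an RNA-binding protein of germ cells, was 19.9 and 22 CPM (others 24.5 to 116), and the meiotic chromosome genes Hormad1 (8.44 and 9.05 CPM, others 10.6 to 30.6) and Hormad2 (1.76 and 2.65 CPM, others 2.76 to 22.3) were low as well. The direction was not common to the germline list. In it 3 of 13 were higher and 5 lower in both clones, near the 23% and 32.7% of all described genes. Sycp3, a synaptonemal complex gene, was above the range at 27.8 and 10.7 CPM (others 5.32 to 10.2). Of the named genes outside the range, Kif23 and Nsg2 were not so under all 3 scalings, and the rest were.

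**Figure D3:**
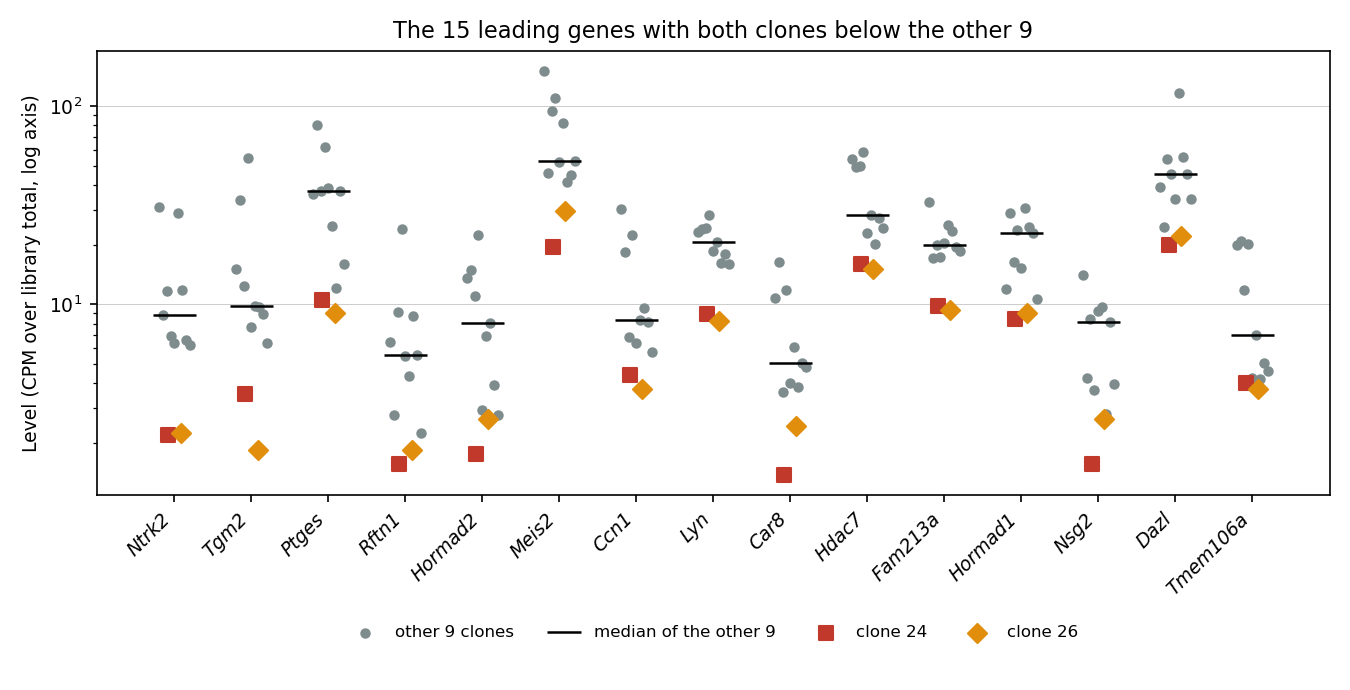
Level of the 15 leading genes with both clones below the other 9, in CPM over the library total on a log axis. Grey points are the other 9 clones, the black line their median, the red square clone 24 and the orange diamond clone 26; for Ntrk2, Tgm2 and Meis2 the 9 clones spread widely above the pair.

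Other programmes showed few genes outside the range, and their counts stand beside 23% higher and 32.7% lower in both clones over all described genes. Glycolysis and hypoxia genes were lower in both clones for 14 of 18 members and higher for 2, with a median log2 difference of -0.32 and 0 members outside the range of the other 9. The summed level of that list was 10025 CPM in clone 24 and 9502 CPM in clone 26, against 9576 to 13408 CPM in the others. Clone 24 was thus inside the range and clone 26 just below it. The counts of 14 and 2 were the same under both other scalings. The pluripotency list had 4 of 22 higher, 8 lower and 0 outside, and with TMM-scaled totals 6 and 6. G2/M genes had 2 of 25 higher and 8 lower (4 and 7 with TMM-scaled totals), and only Kif23, a kinesin of cytokinesis, was outside, at 79.6 and 74.1 CPM (others 79.8 to 109). G1/S genes had 5 of 23 higher and 5 lower, and Ccnd3, which encodes cyclin D3, was outside at 109 and 103 CPM (others 113 to 190.0). Of 20 genes for double-strand break repair, 4 were higher, 6 lower and 0 outside. MEK/ERK target genes were higher for 1 of 15 and lower for 6, and the transcription factor gene Etv1 was below the range at 24.8 and 18.2 CPM (others 26.8 to 55.2). The chaperone gene Hspa5 (377 and 406 CPM, others 238 to 341), the glutathione peroxidase gene Gpx4 (510.5 and 468 CPM, others 305 to 441) and the autophagy receptor gene Sqstm1 (436 and 467 CPM, others 267 to 399) were above it, each as the only member of its stress or lysosome list.

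**Figure D4:**
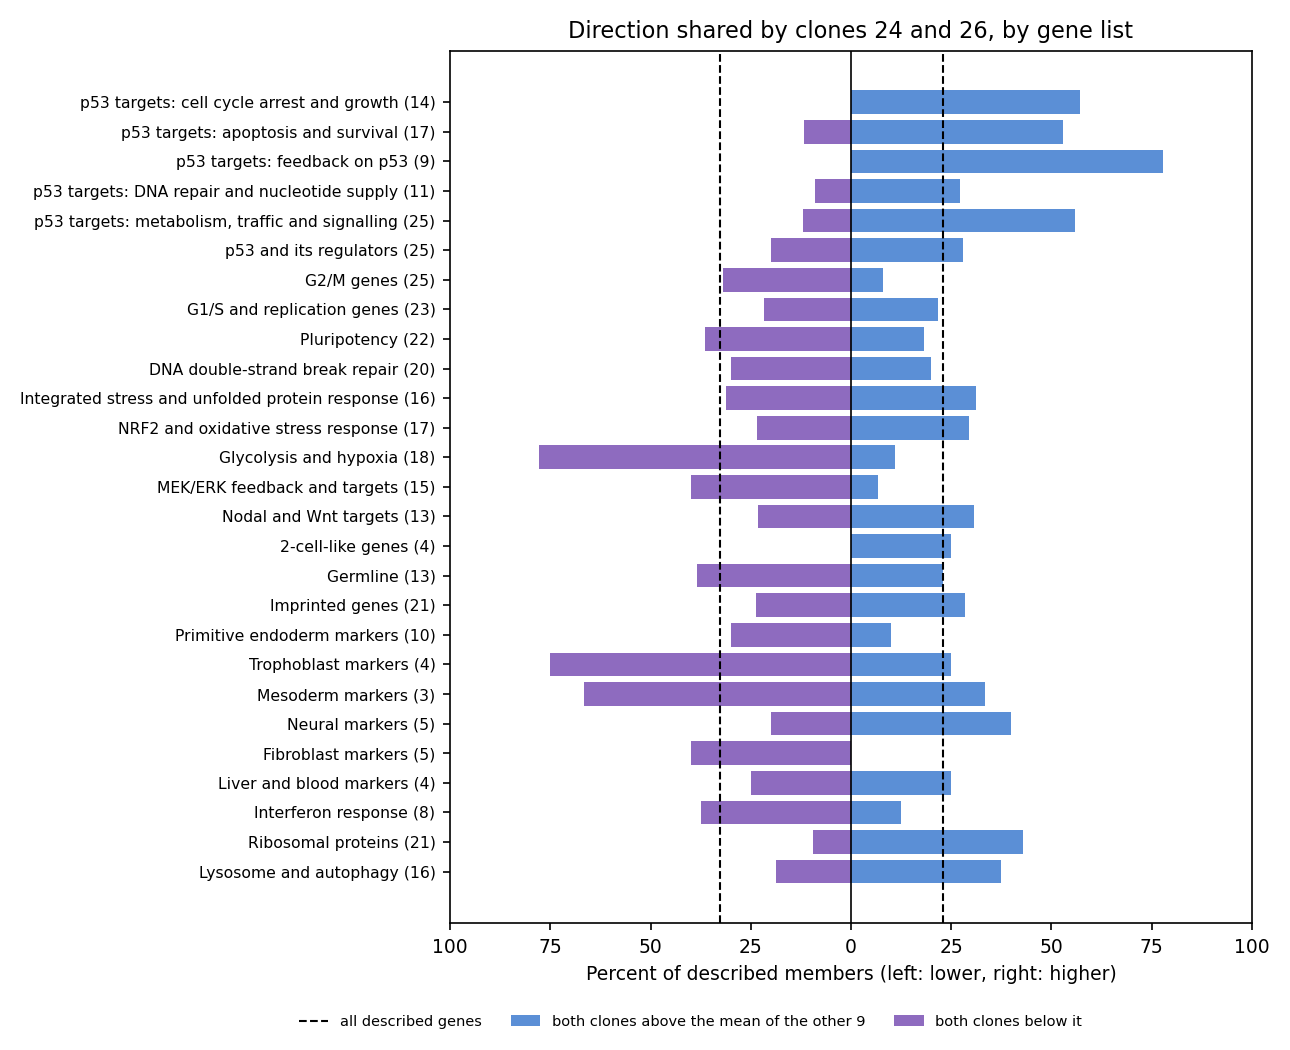
Share of the described members of each of 27 gene lists with both clones of the pair above (right, blue) or below (left, purple) the mean of the other 9 clones, in percent; numbers in brackets are described members. Dashed lines are the shares over all described genes, 23% above and 32.7% below; feedback targets of p53 reach furthest right and glycolysis genes furthest left.

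Summed markers of other cell types were inside the range of the other clones, except that both clones were below it for mesoderm, clone 24 for primitive endoderm, and clone 26 above it for fibroblast markers. In a bulk library, fewer cells of a type and less RNA per cell cannot be told apart. Mesoderm markers summed to 11.3 CPM in clone 24 and 7.28 CPM in clone 26, below the 12.3 to 21 CPM of the others, with 3 of 10 described and 5 of 10 under 1 CPM in every clone. Eomes was the largest part in clone 24, at 6.74 CPM there and 2.86 CPM in clone 26 (others 5.47 to 15.8), so only clone 26 was below its range. T went the other way in clone 26, at 1.36 CPM (highest other 1.19), and Kdr was inside the range in both. Trophoblast markers summed to 83.8 and 67.6 CPM (others 67.1 to 134), with 4 of 8 described and Cdx2 at 0 CPM in clone 24. Primitive endoderm markers summed to 1524 and 1837 CPM (others 1589 to 1983), with 10 of 13 described and a median log2 difference of 0.003. Most of the sum was Lamc1, at 1096 and 1365 CPM (others 1047 to 1374). Sparc, a matrix glycoprotein gene on that list, was 157 and 159.9 CPM, below the 199 to 486 CPM of the others. The marker Gata4 went the other way in clone 24, at 5.23 CPM (highest other 4.48), and was inside the range in clone 26 at 2.65 CPM. Pdgfra was inside it in both. Neural markers summed to 99.8 and 91.3 CPM (others 55.8 to 202), with 5 of 10 described. Fibroblast markers summed to 4651 and 7314 CPM (others 3938 to 6184), most of it fibronectin (Fn1, 4449.9 and 7016 CPM), with Col3a1 at 0 CPM in both. The part of these markers in the genes above was not tested.

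The first test compares clone 24 with clone 26, a difference that played no part in choosing them. With 1 library per clone, edgeR's quasi-likelihood test took the spread from the other 9 clones and assumed that each lone library varies like them. Of 12485 genes on any chromosome, 0 (0.0%) were called higher in clone 24 and 3 (0.024%) higher in clone 26 at a Benjamini-Hochberg adjusted p of 0.05. At an unadjusted p of 0.05 the numbers were 288 and 457, and DESeq2 called 13 and 41. All 3 genes were Y-linked. Ddx3y, an RNA helicase gene, had 1 count in clone 24 and 844 in clone 26, a ratio of 911 with an exact binomial 95% interval of 163 to 36032 for counting error only (edgeR adjusted p = 0.00234). Eif2s3y, a translation initiation factor gene, had 1 and 259 counts, a ratio of 280 with an interval of 49.7 to 11086 (adjusted p = 0.00248 in edgeR). Uty, a histone demethylase gene, had 8 and 242 counts, a ratio of 32.7 with an interval of 16.3 to 76.5 (adjusted p = 0.00248, edgeR). Clone 26 was itself below the other 9 for all 3, with Ddx3y at 57.4 CPM against 107 to 220 CPM, so both clones are low for these Y-linked genes and clone 24 is nearly without their RNA.

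No p53 target was called different between the clones. Ccng1 and Trp53inp1 are left out of the count because their levels chose the pair. Of the other 74 tested, edgeR and DESeq2 each called 0, and 4 (5.41%) had an unadjusted p under 0.05 in edgeR, beside 745 of all 12485 genes (5.97%), so their share was near that of all genes. In direction, 50 of the 74 were higher in clone 24 and 24 higher in clone 26, with a median log2 difference of 0.12. Over all genes tested the numbers were 6393 and 6091, with a median of 0.009, and the split of the targets was not tested. The 4 under the unadjusted threshold are given by their values. Sesn1 had a log2 difference, clone 24 minus clone 26, of -0.92 ± 0.33 (SE, edgeR adjusted p = 0.724). Bcl2l11, which encodes the BH3-only protein Bim, was 14.6 CPM in clone 24 and 7.82 CPM in clone 26 (0.85 ± 0.26, adjusted p = 0.710 in edgeR), and these values lie on both sides of the other range of 9.40 to 12.5 CPM. Dapk1, a death-associated kinase gene, was 122 and 62.6 CPM (others 78.0 to 141), and Trim24, a p53 ubiquitin ligase gene, 264 and 183 CPM (others 209 to 256). Cdkn1a, with nearly 2-fold more in clone 26, had a log2 difference of -0.95 ± 0.57 (edgeR adjusted p = 0.908), and Mdm2 had 0.02 ± 0.21. A p that misses the threshold does not show that the clones are alike, and the common coefficient of variation of 24.1% sets what a single library can resolve.

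The second test leaves the pair out and asks whether genes follow the selecting genes in clones that were not selected. For the other 9 clones an index, the mean log2 CPM of Ccng1 and Trp53inp1, ran from 7.32 in clone 18 to 8.18 in clone 16, and each gene except those 2 was tested for a slope, the log2 change per unit of index. Of 12483 genes, edgeR called 0 (0.0%), with the lowest adjusted p at 0.9999, and DESeq2 called 2, Mdm2 and Stam. At an unadjusted p of 0.05 edgeR gave 376 genes (3.01%), 244 with a positive slope, and this number was 215 without clone 16, 238 without clone 23 and 857 without clone 18. Of these, 126 were on chromosome 3, all positive, and clone 16, with the highest index, is also the clone with the chromosome 3 shift of 0.52. For genes on that chromosome the index and the shift cannot be told apart unless clone 16 is left out.

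Of the 74 p53 targets tested, 49 had a positive slope and 25 a negative one, with a median of 0.20 beside 0.01 over all genes tested, and 9 had an unadjusted p under 0.05 (12.2%, beside 3.01% of all genes), 8 of them positive. The median depended on clone 16. Without it 41 slopes were positive and 33 negative, with a median of 0.07 beside 0.03 over all genes, and 7 had an unadjusted p under 0.05 (9.46%, beside 1.72% of all genes), 5 positive and 2 negative. The negative ones were Ddit4, an inhibitor of mTOR signalling, at -2.25, and Sesn2 at -0.94, which had 0.13 and 0.21 with clone 16 included. With any other single clone left out the median lay between 0.17 and 0.25. The target lists were drawn up with results of these clones known, and the index is itself made of 2 listed targets. The shares and medians of the 74 are thus a description and support nothing further. Mdm2 was 104 CPM in clone 18, 116 in clone 20, 124 in clone 23, 129 in clone 22, 122 in clone 17, 131 in clone 21, 133 in clone 19, 139 in clone 25 and 145 in clone 16, given in the order of the index from low to high. Only clone 17 broke that order. The slope was 0.58 ± 0.14 (SE, edgeR, unadjusted p = 0.00151, rank 6 of 12483), it stayed between 0.54 and 0.59 with any single clone left out, and DESeq2 gave an adjusted p of 0.000561. Plk2 followed with 1.67 ± 0.37 (unadjusted p = 0.00109 in edgeR, rank 4), and clone 18 was lowest at 6.68 CPM and clone 16 highest at 20.8 CPM. Polk had a slope of 0.84 ± 0.22 (unadjusted p = 0.00287, edgeR, rank 12), again with clone 18 lowest and clone 16 highest. Leaving out any single clone kept the Plk2 slope between 1.2 and 1.81 and that of Polk between 0.73 and 0.89. None of these 3 passed adjustment over all genes in edgeR.

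Susd6, a gene on no list here that is known to be induced by p53, had a slope of 0.93 ± 0.22 (edgeR, unadjusted p = 0.00167, rank 7). In the pair it was 92.4 and 96.2 CPM against 46.2, 62.1 and 79.4 CPM, above all other clones. Stam, an endosomal sorting gene, had 1.03 ± 0.21 (rank 2, DESeq2 adjusted p = 0.0314), and in the pair 75.4 and 68.0 CPM against 39.3 to 75.3 CPM. Bbc3 had 1.15 ± 0.34 and Aen 0.51 ± 0.19, and without clone 16 they had 0.73 and 0.57. Zmat3, on chromosome 3, had 0.84 ± 0.31, and 0.65 without clone 16. Psrc1, also on chromosome 3, had 1.34, and 0.16 without it. Cdkn1a was unsettled, with a slope from -0.36 without clone 18 to 1.54 without clone 16, since clone 16 has a high index and 41.3 CPM of Cdkn1a. Among the 10 genes of lowest p, 4 had negative slopes. Rap1gap2, a GTPase activator gene (-1.71 ± 0.37), and Slc7a8, an amino acid transporter gene (-1.99 ± 0.45), had clone 16 lowest and clone 18 highest, and Aes, a transcriptional co-repressor gene (-1.02 ± 0.26), had clone 16 lowest at 112 CPM and clone 23 highest at 222 CPM. The gene of lowest p, ENSMUSG00000074140 (-6.38 ± 1.28), rested on clone 18, at 43.3 CPM against 0.922 to 2.14 CPM in the other 8, and had a slope of 0.40 without it. Btg2 and Pcna also had negative slopes, -0.60 ± 0.40 and -0.47 ± 0.19. Both this slope and the description of the pair use the other 9 clones, so the values stand side by side and are not independent of each other.

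**Figure D5:**
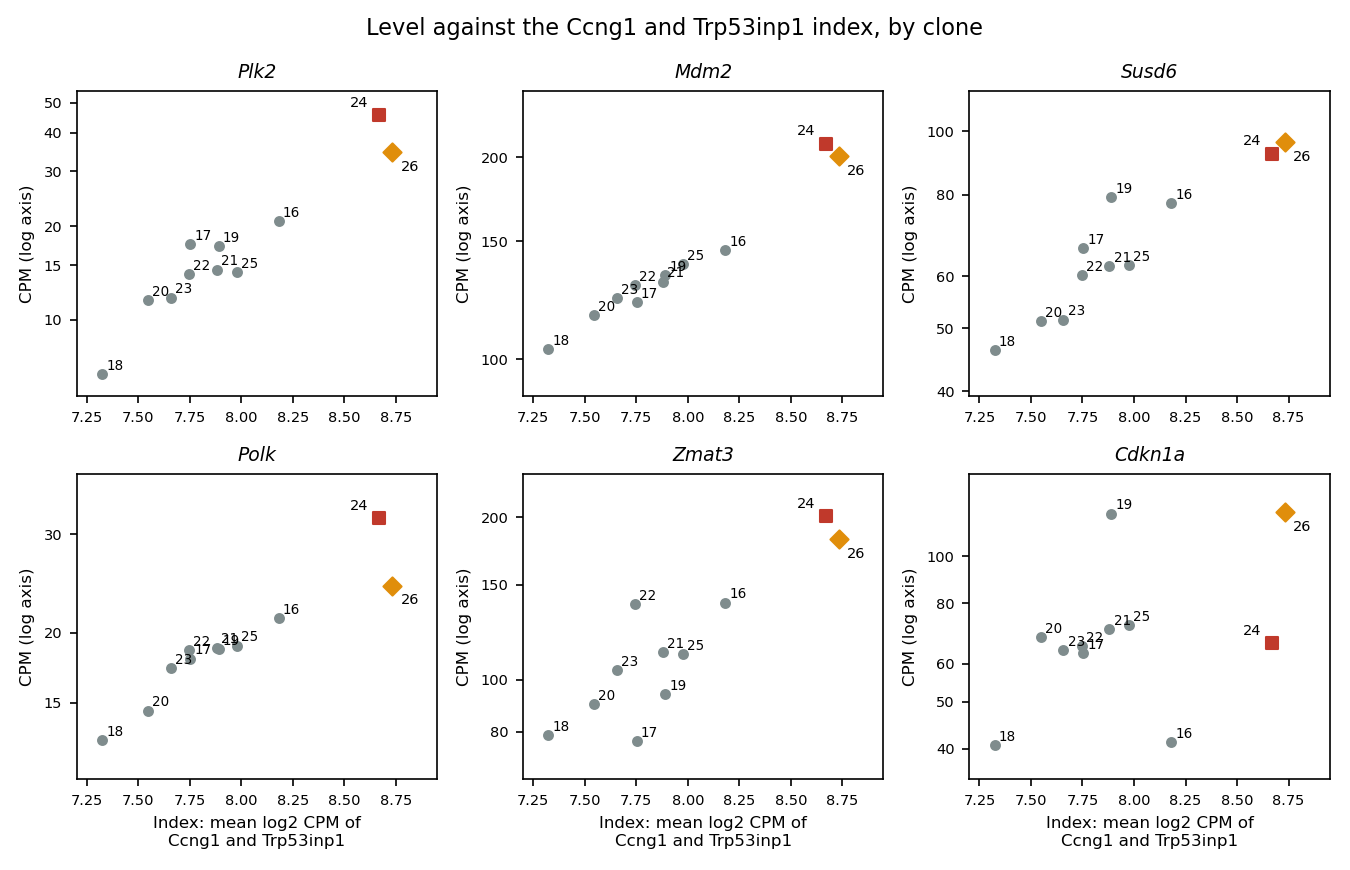
Level of 6 p53 target or induced genes (CPM, log axis) against the index, the mean log2 CPM of Ccng1 and Trp53inp1, in each clone. Grey points with numbers are the 9 clones of the slope test, and the red square and orange diamond are clones 24 and 26, which the test left out; Mdm2 and Polk are higher where the index is higher, with little scatter, and Cdkn1a scatters widely.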

How the data were processed

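RNA of 11 clones was sequenced, 1 library each. The deposited values are raw read counts per gene, in a table of 22369 mouse Ensembl genes, whose total per library is the depth given above. The builds mm9 and hg19 and the tools Bowtie 0.12.7 and TopHat 1.4.0 are named per the submitters' processing notes, and every gene ID is a mouse ID. No source used here names the counting tool, its strand setting or what became of reads that match several places, so near-identical copies such as ribosomal protein genes and their pseudogenes are uncertain. RNA came from an RNeasy kit and libraries from a TruSeq RNA kit, per the labels' protocols. Symbols and chromosomes came from GENCODE M21, and 1592 genes without them held 0.401% of counts. Promoters are from RefSeq on GRCm38.p6, a later build than mm9, so no coordinate was joined to the counts.

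Levels are CPM over the library total, and differences are in log2(CPM + 1), a scale that understates the change of genes with low levels. Tests used R 4.3.3 and edgeR 4.0.16 (quasi-likelihood, TMM) on genes averaging 1 CPM or more, with Benjamini-Hochberg adjustment over all genes tested and a threshold of 0.05. Both designs were tested on simulated counts, with 50 genes changed at each fold, which for the slope is the fold per unit of index. The simulated spread followed the mean level alone, with none particular to a gene. Only genes of at least 5 CPM were changed, so recovery in the data can be lower. At 1.5-fold each test recovered 0 of 50. At 2-fold the test between the clones recovered 5 and the slope test 4, and at 4-fold 42 and 44. An absence of calls thus says little about changes of 2-fold or less. In the data edgeR also left larger differences between the clones uncalled, such as Trpm1 (8.44 CPM in clone 24, 107 CPM in clone 26). The simulated recovery at 4-fold therefore does not hold for every gene. DESeq2 1.42.0 served as an alternative, and pandas 2.3.3, NumPy 2.4.6 and matplotlib 3.10.9 as tools. Nothing in the labels says that libraries came from separate cultures, so p-values measure the spread between clones' libraries. Named genes are the 3 markers, the p53 lists, the 15 genes leading in each direction at a mean of at least 5 CPM, genes called between the clones (up to 10 each way), the 10 of lowest slope p, and of the other lists the 2 most abundant members and up to 4 outside the range. The pair, the 27 lists and the tests were chosen with earlier results of these data known.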

Additional observations from a re-analysis of the deposited data

How the results depend on the processing

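The number of genes with both clones above the other 9 was 238 over library totals and 385 with DESeq2 size factors, and it ran from 247 to 378 when each of the other clones was left out in turn, with 378 without clone 25. The number below ran from 446 to 603 in the same way, and a mean of at least 5 CPM, no filter and pseudocounts of 0.5 or 5 CPM kept both numbers within 1.5 times. Between clones 24 and 26, DESeq2 called 54 genes, and leaving out each of the other 9 clones gave 3 to 5, with 5 without clone 16. For the slope over the other 9 clones DESeq2 called 2 genes. Among the named genes, no value past a threshold changed sign under an alternative that was run, while slopes under it did (such as that of Cdkn1a). Of these genes, Stat2 between the clones and Mdm2 and Stam for the slope passed the threshold under DESeq2 only. Autosomal genes not named above also did so between the clones, such as Fbxl22 (0.378 CPM in clone 24, 35.2 CPM in clone 26) and Gpbar1 (29.0 and 0.068 CPM). No paired analysis was possible because the labels give 1 group and each clone number occurs once. Depth limits the genes with the lowest levels, where counting error is largest.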

Other observations

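Ribosomal protein genes were higher in both clones for 9 of 21 members and lower for 2, with a median log2 difference of 0.10 and 0 outside the range of the other 9, and the median was -0.03 in clone 24 and 0.17 in clone 26. Genes of the 2-cell-like state, a rare condition of stem cell cultures, summed to 7.94 CPM in clone 24 and 26.5 CPM in clone 26, against 1.85 to 24.2 CPM in the others, so clone 26 was above all of them, and Zscan4d was 1.57 and 6.26 CPM. Imprinted genes were higher in both clones for 6 of 21 and lower for 5, and interferon response genes for 1 and 3 of 8. Over all described genes the shares were 23% higher and 32.7% lower. Stat2, a transcription factor gene of the interferon response, was 41.4 CPM in clone 24 and 65.5 CPM in clone 26, with the other clones between 37.7 and 46.7 CPM (log2 difference -0.71 ± 0.17, SE, edgeR adjusted p = 0.479). Nodal and Wnt target genes were higher in both clones for 4 of 13 and lower for 3. Trp53bp1, a damage response gene, was 72.6 CPM in clone 24, below the 88.6 to 136 CPM of the others, and 112 CPM in clone 26. Npm1, the nucleolar protein that binds Arf, was 1681 and 2278 CPM against 1524 to 1973 CPM, so clone 26 alone was above the range.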
